A study of Homo sapiens with 12 samples.

Results

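A set of 10 marker genes of epithelial junctions and of the epithelial-mesenchymal transition (EMT) was followed by RNA sequencing in a drug-resistant lung cancer line: the cadherins CDH1 and CDH2, the tight junction genes OCLN, TJP1, CLDN1 and CLDN2, the surface marker EPCAM, the intermediate filament gene VIM, and the transcription factor genes ZEB1 and SNAI2. They were picked by symbol, 10 of the 61510 genes in the deposited table, and all 10 had enough counts to be tested. The cells were A549/DDP, which descend from A549, a human lung adenocarcinoma line, and resist cisplatin (DDP). All groups, controls included, grew with 1 µg/ml cisplatin in the medium. A control hairpin was carried by one line (shNC) and a hairpin against NRF2 by the other (shNRF2), NRF2 being the transcription factor that NFE2L2 encodes and that turns on antioxidant genes. From 70% confluence each line was exposed for 24 h to the solvent DMSO or to gambogenic acid (GNA, 4 µM), a xanthone of gamboge, the resin of Garcinia trees. That gave 4 groups of 3 libraries, 12 in all, named here by hairpin and treatment, as in shNC DMSO or shNRF2 GNA. Each hairpin was represented by 1 line, so an effect of the hairpin and any other difference between the lines cannot be told apart.

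Cadherins are calcium-dependent adhesion proteins: E-cadherin (CDH1) holds epithelial cells together at adherens junctions, while N-cadherin (CDH2) is typical of mesenchymal cells. Tight junctions seal the space between neighbouring cells through the membrane proteins occludin and claudins, which scaffold proteins such as ZO-1 (TJP1) tie to actin. In EMT, a programme of development, wound healing and carcinoma spread, repressors of the ZEB and SNAI families bind E-box motifs in the promoters of epithelial genes, and cells gain vimentin and N-cadherin.

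Library totals ran from 12848607 to 17192671 counts. NFE2L2, the target of the hairpin, stood at 77.9 ± 3.6 CPM (counts scaled to a common library total, by the TMM method; mean ± SD, n = 3, as for all such values) in shNC DMSO and 87.4 ± 3.85 in shNC GNA, against 50.2 ± 2.8 in shNRF2 DMSO and 45.8 ± 2.0 in shNRF2 GNA, and every shNRF2 library lay below every shNC library. Of 9 markers of a lung epithelial line, KRT7, KRT8 and KRT18 were abundant, with KRT8 between 7429.6 and 13319.3 CPM. KRT19, the lung factor gene NKX2-1, the surfactant genes SFTPA1, SFTPB and SFTPC, and NAPSA did not exceed 0.413 CPM in any library. The summed level of 10 fibroblast, endothelial and leukocyte genes was 3.56 to 5.58 CPM without and 2.28 to 3.07 CPM with GNA in the control line, and 2.76 to 3.83 without and 1.66 to 2.15 with GNA in shNRF2. LUM was the highest of them at no more than 3.44 CPM, CD3E had no count in shNC GNA and KDR none in shNRF2 DMSO, and the part of such RNA in the results was not tested.

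The tests were edgeR's quasi-likelihood tests over all 15653 genes that passed a filter on low counts. A gene is said to have risen, fallen or been called where its p, adjusted over those genes by the Benjamini-Hochberg method, was under 0.05, and changes are log2 fold changes ± SE unless a fold is named. GNA was tested against DMSO within each line, the lines were tested against each other within each treatment, and an interaction term tested whether the GNA response differed between them. Comparisons that share a group are not independent of each other. Nothing in the labels says whether the libraries of a group are separate cultures, so the p-values reflect variation among these libraries alone, and part or all of it may be technical. An exact permutation test of 3 libraries against 3 could not give a p under 0.1 for a single gene, so none is quoted.

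Promoter sequence is shown for CDH2, TJP1, CLDN2 and VIM, because these genes differed by hairpin in both treatments and each has an annotated start whose 250 upstream bases hold no annotated exon. RefSeq (GRCh38.p14) gave 19 upstream windows of 250 bases for 7 of the 10 genes, of which 14 overlap annotated exons and are not printed. A second exon-free window of TJP1, at an internal start, holds neither motif. CDH1, EPCAM and SNAI2 had no entry. A pair of motifs was searched on both strands: the E-box CACCTG, to which ZEB and SNAI proteins bind, and TGANNNNGC, the core of the antioxidant response element to which NRF2 binds. Windows run 5′ to 3′ on the gene's strand, and capitals mark a motif. CDH2 (chr18:28036642-28036891, minus strand, an internal start) and VIM (chr10:17227991-17228240, plus strand) hold neither. TJP1 (chr15:29969050-29969299, minus strand) holds the E-box as its reverse complement, 88 bases before the start. CLDN2 (chrX:106918110-106918359, plus strand, an internal start) holds the response element core as its reverse complement, 248 bases before the start.
CDH2: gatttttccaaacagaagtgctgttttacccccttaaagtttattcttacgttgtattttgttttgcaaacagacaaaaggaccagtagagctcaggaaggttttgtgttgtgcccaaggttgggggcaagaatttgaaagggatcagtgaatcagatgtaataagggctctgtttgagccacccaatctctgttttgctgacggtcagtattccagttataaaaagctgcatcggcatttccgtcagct
TJP1: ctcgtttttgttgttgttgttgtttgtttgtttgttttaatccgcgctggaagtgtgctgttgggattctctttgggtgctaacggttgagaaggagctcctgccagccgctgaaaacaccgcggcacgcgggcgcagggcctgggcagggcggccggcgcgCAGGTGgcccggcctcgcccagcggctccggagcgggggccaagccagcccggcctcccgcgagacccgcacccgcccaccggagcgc
CLDN2: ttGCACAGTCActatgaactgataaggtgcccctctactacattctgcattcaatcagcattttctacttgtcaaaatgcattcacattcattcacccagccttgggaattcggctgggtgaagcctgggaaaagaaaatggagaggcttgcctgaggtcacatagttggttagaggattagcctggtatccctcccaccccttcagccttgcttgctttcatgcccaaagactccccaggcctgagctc
VIM: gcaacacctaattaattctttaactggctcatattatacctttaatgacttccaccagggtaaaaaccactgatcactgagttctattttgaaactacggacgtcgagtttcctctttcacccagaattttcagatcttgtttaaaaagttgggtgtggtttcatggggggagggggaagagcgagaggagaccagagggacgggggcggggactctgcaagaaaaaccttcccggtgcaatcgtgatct
Across the 19 windows, 5 windows of OCLN, TJP1 and ZEB1 held CACCTG, and 7 windows of TJP1, CLDN1, CLDN2 and ZEB1 held TGANNNNGC, with 0 overlaps between the motifs. Of all 35116 RefSeq windows of this length, 17.5% held CACCTG and 35.2% held TGANNNNGC. A match is a description of the sequence and says nothing of binding.

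Levels can be set against each other between genes only per transcript length, as FPKM (fragments per kilobase and library total). By median FPKM over the 12 libraries the order was TJP1 (23.1), VIM (21.4), ZEB1 (17.4), CLDN1 (11.6), CLDN2 (8.7), CDH1 (8.67), OCLN (4.32), EPCAM (1.23), CDH2 (0.386) and SNAI2 (0.196). Genes of both the epithelial and the mesenchymal state were thus among the 5 highest. Neighbours were not always separable: TJP1 exceeded VIM in 7 of 12 libraries and CLDN2 exceeded CDH1 in 6. CDH1, OCLN, EPCAM and CDH2 each exceeded the next gene in all 12. EPCAM, CDH2 and SNAI2 ranked low, and their folds have wide intervals.

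**Figure D1:**
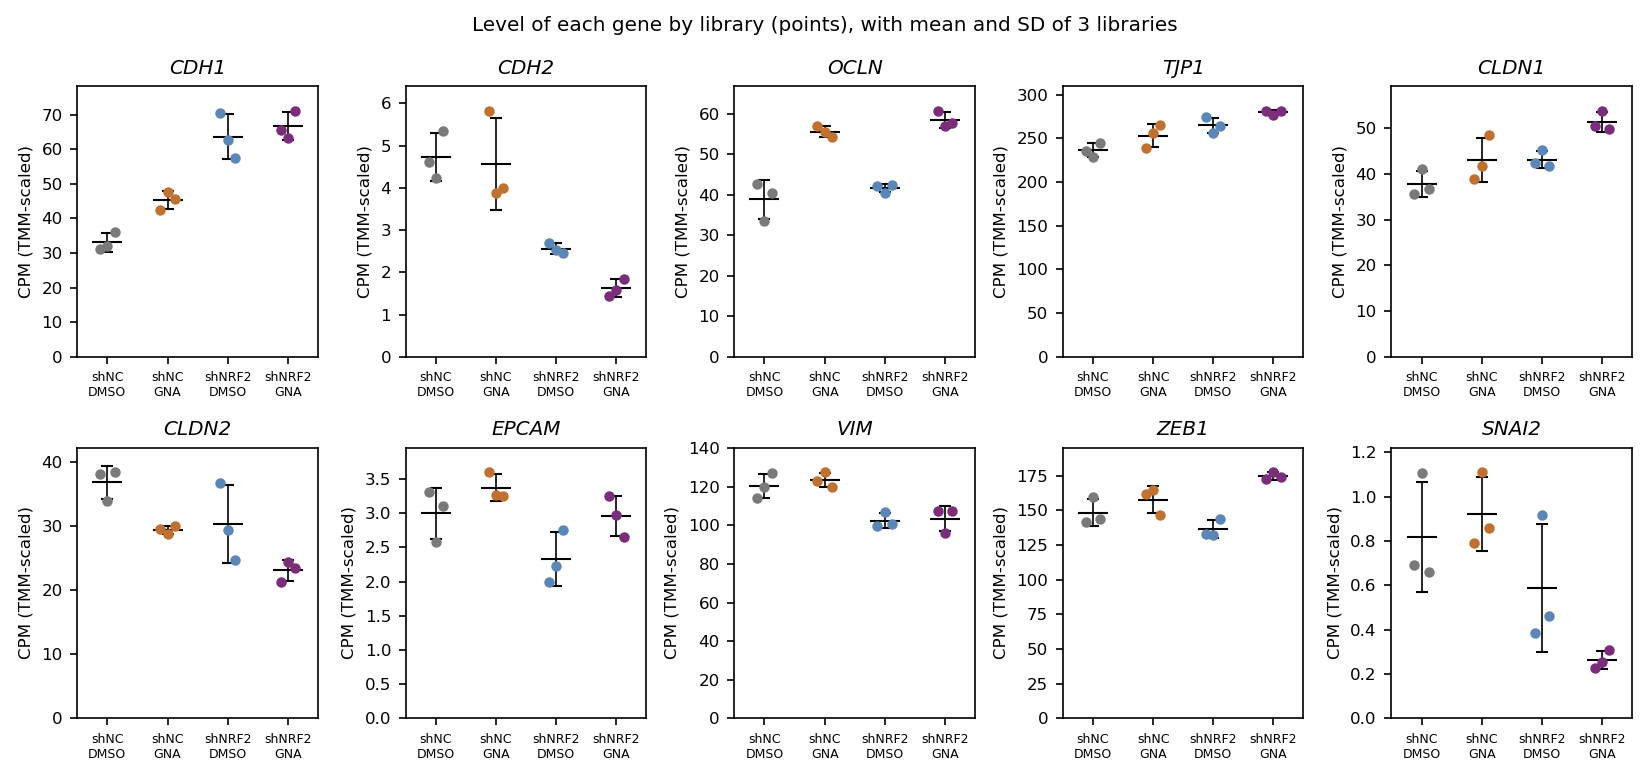
Level of each of the 10 genes in CPM (vertical axes, each from 0) in the 4 groups; points are single libraries, and bars give the mean ± SD of 3. CDH1 is higher and CDH2 lower in the shNRF2 libraries, OCLN is higher with GNA in both lines, and ZEB1 is highest in shNRF2 GNA, at 172.6 to 177.6 CPM.

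The cadherins separated the lines in opposite directions. CDH1 (chr16:68737225-68835548, plus strand; positions here are those of GENCODE 29 on GRCh38) stood at 31.08, 32.02 and 36.04 CPM in the shNC DMSO libraries and at 70.4, 62.78 and 57.49 in shNRF2 DMSO. With GNA it stood at 42.54, 47.68 and 45.68 CPM in shNC and at 65.45, 63.28 and 71.16 in shNRF2. Every shNRF2 library thus exceeded every shNC library, and within shNC every GNA library exceeded every DMSO library, while the DMSO and GNA libraries of shNRF2 overlapped. CDH1 was 1.93-fold higher in shNRF2 than in shNC in DMSO (95% interval 1.72 to 2.16, adjusted p = 4.2e-10, edgeR) and 1.47-fold higher in GNA (1.32 to 1.64, adjusted p = 2.8e-06). GNA raised it 1.37-fold in shNC (1.22 to 1.54, adjusted p = 7.2e-05), and in shNRF2 its fold was 1.05 (0.941 to 1.17, adjusted p = 0.54).

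CDH2 (chr18:27950966-28177446, minus strand) was a low gene, counted 19 to 81 times per library. It stood at 4.617, 4.233 and 5.346 CPM in shNC DMSO, 5.83, 3.886 and 3.991 in shNC GNA, 2.698, 2.527 and 2.453 in shNRF2 DMSO, and 1.433, 1.584 and 1.847 in shNRF2 GNA. All 6 shNRF2 libraries lay below all 6 shNC libraries, the GNA libraries of shNRF2 lay lowest of all, and the shNC groups overlapped. Its level in shNRF2 was 0.543 of that in shNC in DMSO (0.4 to 0.737, adjusted p = 0.002, edgeR) and 0.36 of it in GNA (0.261 to 0.498, adjusted p = 1.6e-05). These differences between the lines, like those of CDH1, were called with each library left out and in each alternative processing. GNA lowered CDH2 in shNRF2 to 0.637 (0.448 to 0.906, adjusted p = 0.0434, edgeR), a call lost in 8 of 10 other settings (DESeq2 gave an adjusted p = 0.063) and without any 1 of shNRF2 DMSO 1, 2 or 3 (0.11, 0.074, 0.066) or shNRF2 GNA 1 or 2 (0.12, 0.1). In shNC the GNA change of CDH2 was -0.06 ± 0.196 (adjusted p = 0.86), with a sign that turned to 0.04 when library totals replaced TMM scaling.

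**Figure D2:**
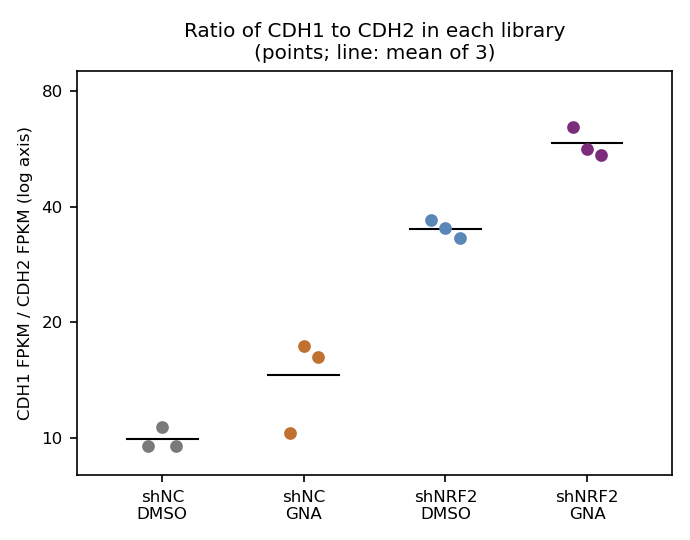
Ratio of CDH1 to CDH2 FPKM (log axis) in each library (points), with the mean of each group of 3 as a line. The shNC libraries lie between 9.51 and 17.3 and the shNRF2 libraries between 33.1 and 64.5.

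The ratio of E-cadherin to N-cadherin transcript, taken per library on the FPKM scale, puts both genes on one axis. It was 9.51, 10.7 and 9.52 in shNC DMSO, 10.3, 17.3 and 16.2 in shNC GNA, 36.9, 35.1 and 33.1 in shNRF2 DMSO, and 64.5, 56.4 and 54.4 in shNRF2 GNA. The lines did not overlap, and within shNRF2 the GNA libraries all lay above the DMSO libraries, where CDH1 had a GNA fold of 1.05 and CDH2 one of 0.637. In shNC, GNA library 1 fell among the DMSO libraries. The ratio was built from genes already seen to differ, so it carries no test. In bulk RNA, fewer cells of a type and less RNA per cell cannot be told apart.

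OCLN (occludin; chr5:69492292-69558104, plus strand) had, of the 4 tight junction genes among the 10, the largest GNA changes and the smallest differences between the lines. It stood at 42.59, 33.56 and 40.39 CPM in shNC DMSO and at 57.0, 55.58 and 54.15 in shNC GNA. In shNRF2 it stood at 42.13, 40.5 and 42.39 CPM in DMSO and at 60.78, 56.94 and 57.68 in GNA. All 6 GNA libraries exceeded all 6 DMSO libraries. The GNA fold was 1.43 in shNC (1.29 to 1.59, adjusted p = 4e-06, edgeR) and 1.4 in shNRF2 (1.26 to 1.56, adjusted p = 7e-06), called with each library left out and in each alternative. The difference between these responses was -0.03 (95% interval -0.25 to 0.18, adjusted p = 0.92), and the lines differed by 0.1 (-0.05 to 0.26) in DMSO and 0.07 (-0.07 to 0.22) in GNA. The pseudogene OCLNP1, whose sequence could share reads with OCLN, held 0.744% of OCLN's mean count.

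The claudins, the membrane proteins that set which ions and solutes pass a tight junction, moved in opposite directions. CLDN2, a pore-forming claudin (chrX:106900164-106930861, plus strand), stood at 38.11, 33.8 and 38.35 CPM in shNC DMSO, 29.44, 28.75 and 29.9 in shNC GNA, 36.67, 29.32 and 24.61 in shNRF2 DMSO, and 21.26, 24.39 and 23.45 in shNRF2 GNA. The GNA libraries lay below the DMSO libraries of the same line, and shNRF2 DMSO spread so widely that it overlapped shNC DMSO. CLDN2 fell with GNA to 0.8 of the DMSO level in shNC (0.694 to 0.921, adjusted p = 0.014, edgeR) and to 0.761 in shNRF2 (0.656 to 0.883, adjusted p = 0.004). It was lower in shNRF2 than in shNC, at 0.826 in DMSO (0.716 to 0.953, adjusted p = 0.033) and 0.786 in GNA (0.678 to 0.911, adjusted p = 0.013). Single libraries decided these calls. Without shNC DMSO 3 the GNA change in shNC was -0.29 (adjusted p = 0.061), without shNRF2 DMSO 1 that in shNRF2 was -0.22 (adjusted p = 0.093), and without shNRF2 GNA 1 the line difference in GNA was -0.29 (adjusted p = 0.075). The line difference in DMSO was lost without shNC DMSO 1 or 3 or shNRF2 DMSO 2 or 3 (adjusted p = 0.074, 0.11, 0.1 and 0.25), with -0.15 in the last. With library totals the falls in shNC (adjusted p = 0.094) and between the lines in DMSO (0.09) were not called, nor were any of the 4 on the FPKM scale with limma.

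CLDN2 lies within the span of MORC4 on the opposite strand, and the strand setting of the counting is not given in the sources used here. MORC4 held 1310% of CLDN2's mean count, and 0 of CLDN2's 3410 annotated exon bases are shared with it. MORC4 rose by 0.66 ± 0.041 in shNRF2 in DMSO and by 0.69 ± 0.041 in GNA, opposite in sign to CLDN2, and moved by 0.05 and 0.08 with GNA. How far its reads enter the CLDN2 count was not tested.

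CLDN1, a barrier-forming claudin (chr3:190305701-190322475, minus strand), stood at 35.69, 41.1 and 36.63 CPM in shNC DMSO and at 38.94, 41.82 and 48.44 in shNC GNA. In shNRF2 it stood at 42.39, 45.17 and 41.78 CPM in DMSO and at 50.37, 53.84 and 49.8 in GNA. The shNRF2 GNA libraries were the highest of all 12, and the shNC groups overlapped. CLDN1 rose 1.19-fold with GNA in shNRF2 (1.07 to 1.33, adjusted p = 0.013, edgeR), and was 1.19-fold higher in shNRF2 than in shNC in GNA (1.07 to 1.33, adjusted p = 0.016). The change in shNC was 0.19 ± 0.079 (adjusted p = 0.072) and the line difference in DMSO 0.19 ± 0.08 (adjusted p = 0.069). The first of these was called without shNC DMSO 2 (0.032) or shNC GNA 1 (0.021), the second without shNC DMSO 2 (0.03), and both with upper-quartile factors (0.03 and 0.034) or library totals (0.0053 and 0.019). The rise in shNRF2 was lost without shNRF2 DMSO 3 (0.051) or GNA 2 (0.068), and the line difference in GNA without shNC GNA 1 (0.11) or 2 (0.066) or shNRF2 GNA 2 (0.083).

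TJP1 (chr15:29699367-29968865, minus strand), which encodes the scaffold ZO-1, varied little. It stood at 235.9, 229.3 and 244.8 CPM in shNC DMSO, 238.8, 256.2 and 265.2 in shNC GNA, 274.4, 256.5 and 264.0 in shNRF2 DMSO, and 281.4, 276.7 and 281.9 in shNRF2 GNA. The shNRF2 libraries lay above the shNC libraries of the same treatment, by 1.12-fold in DMSO (1.04 to 1.2, adjusted p = 0.01, edgeR) and 1.1-fold in GNA (1.03 to 1.18, adjusted p = 0.028). The GNA change was 0.1 ± 0.049 in shNC (adjusted p = 0.13) and 0.08 ± 0.048 in shNRF2 (adjusted p = 0.22). With library totals these became 0.2 (0.0018) and 0.14 (0.021) and were called, and the one in shNC was called without shNC GNA 1 (0.039). The line difference in DMSO was lost without shNC DMSO 2 (0.054) or shNRF2 DMSO 1 (0.062), and that in GNA without shNC GNA 1 (0.16) or 2 (0.059) or any of shNRF2 GNA 1, 2 or 3 (0.081, 0.053, 0.084).

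EPCAM (chr2:47345158-47387601, plus strand), an adhesion molecule of epithelial cells, was a low gene. In shNC it ran from 2.577 to 3.308 CPM without and from 3.254 to 3.599 with GNA. In shNRF2 it ran from 1.991 to 2.76 CPM without and from 2.647 to 3.243 with GNA. It was called in 0 of the 5 comparisons, and the 95% interval of its GNA fold in shNC, 0.837 to 1.52, holds the 1.37 of CDH1. A rise of that size in EPCAM is thus not excluded.

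VIM (vimentin; chr10:17228259-17237593, plus strand), the intermediate filament of mesenchymal cells, differed by line and did not respond detectably to GNA. It stood at 114.4, 120.1 and 126.9 CPM in shNC DMSO, 122.9, 127.6 and 120.1 in shNC GNA, 99.68, 106.8 and 100.6 in shNRF2 DMSO, and 107.2, 96.03 and 107.2 in shNRF2 GNA. All 6 shNRF2 libraries lay below all 6 shNC libraries. Its level in shNRF2 was 0.85 of that in shNC in DMSO (0.782 to 0.922, adjusted p = 0.0022, edgeR) and 0.837 in GNA (0.771 to 0.909, adjusted p = 0.0013), called with each library left out and in each alternative. The GNA change was 0.04 (95% interval -0.08 to 0.15) in shNC and 0.02 (-0.1 to 0.14) in shNRF2. The antisense gene VIM-AS1 held 0.391% of VIM's mean count.

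ZEB1 (chr10:31318495-31529814, plus strand), a zinc finger repressor of CDH1 and other epithelial genes, rose with GNA in shNRF2. It stood at 141.7, 159.4 and 144.1 CPM in shNC DMSO, 162.1, 164.6 and 146.8 in shNC GNA, 133.1, 132.2 and 143.8 in shNRF2 DMSO, and 172.6, 177.6 and 174.3 in shNRF2 GNA. The shNRF2 GNA libraries exceeded all the others, and the shNC groups overlapped. The rise in shNRF2 was 1.28-fold (1.18 to 1.39, adjusted p = 1.3e-05, edgeR), called with each library left out and in each alternative, and the change in shNC was 0.09 ± 0.056 (adjusted p = 0.26, but 0.0088 with library totals). Between the lines ZEB1 differed by -0.12 ± 0.057 in DMSO (adjusted p = 0.097) and 0.15 ± 0.056 in GNA (adjusted p = 0.0523). The first was called without shNC DMSO 1 (0.036) or shNRF2 DMSO 3 (0.047), and the second without shNC DMSO 2 (0.037), shNC GNA 2 (0.047) or shNRF2 DMSO 3 (0.045). In edgeR the second was also called with library totals (0.027) or upper-quartile factors (0.028). It was called too with a filter of 1 CPM in 3 libraries (0.046) and with only the groups compared (0.035), so in 4 of 10 other settings.

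SNAI2 (chr8:48917604-48921740, minus strand), which encodes the repressor Slug, was counted between 3 and 18 times per library. It ran from 0.66 to 1.104 CPM in shNC DMSO and from 0.7917 to 1.11 in shNC GNA. In shNRF2 it ran from 0.3854 to 0.9187 CPM in DMSO and was 0.2262, 0.2534 and 0.3078 in GNA. The shNRF2 GNA libraries were the lowest, below every other library. Its level in shNRF2 was 0.293 of that in shNC in GNA (0.141 to 0.606, adjusted p = 0.011, edgeR), a call lost without shNC GNA 2 (0.052). The GNA change in shNRF2 was -1.11 ± 0.557 (adjusted p = 0.13) on 6, 12 and 6 counts against 3, 4 and 5.

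**Figure D3:**
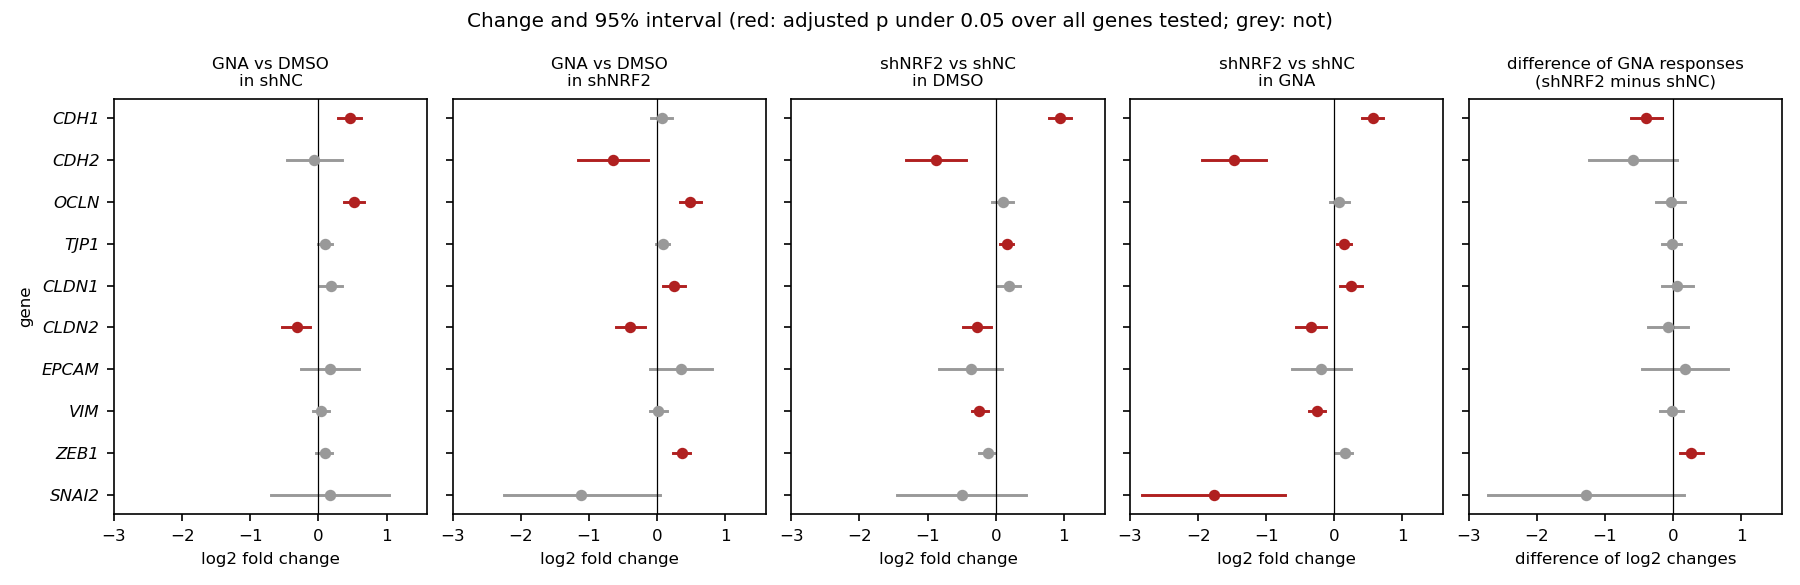
Log2 fold change of each of the 10 genes (horizontal axis) with its 95% interval in the 5 comparisons (panels); red marks an adjusted p under 0.05 in edgeR. CDH1 lies right of 0 and CDH2 left of 0 in both comparisons of the lines, and the widest intervals are those of SNAI2.

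Counted together, 3 of the 10 genes were called for GNA in shNC (CDH1 and OCLN higher, CLDN2 lower), where 30.7% of all tested genes were called. For GNA in shNRF2 the count was 5 (OCLN, CLDN1 and ZEB1 higher, CDH2 and CLDN2 lower) against 33.7% of all genes. For shNRF2 against shNC in DMSO it was 5 (CDH1 and TJP1 higher, CDH2, CLDN2 and VIM lower) against 35.2%, and in GNA it was 7 (CDH1, TJP1 and CLDN1 higher, CDH2, CLDN2, VIM and SNAI2 lower) against 26.1%. In shNC the share of members called was near the share of all genes, and with so few genes the other shares are descriptions of these 10. Of all genes, 12.8% were higher and 13.3% lower in the last. The libraries of the groups compared did not overlap in 3, 7, 5 and 9 of the 10, against 40.7%, 44.9%, 43.2% and 40.9% of all genes, in the same order. The count of called genes for GNA in shNC rose to 5 without shNC GNA 1, and that in shNRF2 fell to 3 without shNRF2 DMSO 1 or 3 or GNA 2.

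The direct test of whether GNA acted differently in the lines called 2 of the 10 genes, CDH1 and ZEB1, against 6.82% of all genes (3.24% lower and 3.58% higher). For CDH1 the response in shNRF2 was lower than in shNC by -0.39 ± 0.11 (95% interval -0.62 to -0.16, adjusted p = 0.03, edgeR). For ZEB1 it was higher by 0.27 ± 0.08 (0.11 to 0.44, adjusted p = 0.039). The CDH1 call was lost without any 1 of shNC DMSO 1 or 2, shNC GNA 2 or 3, shNRF2 DMSO 1 or 2, or shNRF2 GNA 1 or 2 (adjusted p from 0.056 to 0.12), and the ZEB1 call without shNC DMSO 2, shNC GNA 3, shNRF2 DMSO 1 or 2, or any shNRF2 GNA library (0.07 to 0.12), and neither was called by limma on FPKM. The ZEB1 call was also lost with library totals (0.073), without a filter (0.054) and with the replicate number as a block (0.052). The count was 0 without shNC DMSO 2, shNC GNA 3, shNRF2 DMSO 1 or 2, or shNRF2 GNA 1 or 2. For CDH2 the difference was -0.59 (-1.24 to 0.06, adjusted p = 0.31) and for SNAI2 -1.27 (-2.71 to 0.16, adjusted p = 0.32), intervals too wide to place them.

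Related genes outside the 10 were described from lists of the same pathways, by counts of called genes and by the median log2 fold change; the median over all tested genes lay between -0.005 and 0.017 in every comparison. With library totals in place of TMM scaling that median moved by 0.102 for GNA in shNC, and 3543 genes were called higher and 1542 lower there in place of 2284 and 2526. Of 17 other claudins 5 could be tested, and with GNA 2 rose and 0 fell in shNC (median 0.57) while 3 rose and 0 fell in shNRF2 (median 0.65), against 14.6% and 16.7% of all genes higher. CLDN12 went from 19.7 ± 0.991 to 29.1 ± 0.777 CPM in shNC and from 18.6 ± 2.6 to 29.1 ± 0.323 in shNRF2, and CLDN4 from 2.95 ± 0.625 to 5.55 ± 1.26 and from 1.82 ± 0.443 to 3.66 ± 0.29. Both rose, as OCLN did, while CLDN2 fell. Of 18 tested genes of other tight junction components, 3 rose and 6 fell with GNA in shNC (14.6% and 16.1% of all genes), and 2 rose and 6 fell in shNRF2 (16.7% and 17.0%); with library totals the splits were 5 to 3 and 3 to 4. MARVELD2 (tricellulin, a relative of occludin at 3-cell contacts) rose from 3.32 ± 0.292 to 5.16 ± 0.694 CPM in shNC and from 2.69 ± 0.458 to 5.09 ± 0.571 in shNRF2. The polarity scaffold gene PARD3 fell from 497.4 ± 10.8 to 360.5 ± 7.24 CPM in shNC and from 401.1 ± 7.91 to 265.4 ± 8.47 in shNRF2. The tight junction count in shNC was 5 in place of 9 without shNC DMSO 2, and that in shNRF2 was 5 in place of 8 without shNRF2 GNA 1.

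Among adhesion genes of the other junctions, DSG2 (desmoglein 2, a desmosomal cadherin) rose with GNA from 189.1 ± 6.25 to 259.5 ± 6.12 CPM in shNC and from 160.9 ± 1.92 to 251.2 ± 0.743 in shNRF2. PKP2 and PERP, which build or hold desmosomes, fell, and of 9 tested desmosome genes 1 rose and 2 fell in shNC (5 called in all without shNC DMSO 1), and 1 rose and 5 fell in shNRF2 (median -0.29). Of all genes 14.6% rose and 16.1% fell in shNC, and 16.7% and 17.0% in shNRF2, so the counts in shNC lie near those shares. Between the lines, 1 desmosome gene was higher and 4 lower in shNRF2 in DMSO, where 16.8% and 18.3% of all genes were. In GNA 1 was higher and 6 lower, where 12.8% and 13.3% of all genes were. Over the alternatives 5 to 6 desmosome genes were called between the lines in DMSO and 5 to 7 in GNA. Of 12 tested cadherin and adherens junction genes 3 rose and 2 fell with GNA in each line (4 and 0 in shNC and 3 and 1 in shNRF2 with library totals), and in shNC 2 were called in all without shNC DMSO 1 or shNC GNA 2 and 3 without shNC DMSO 3. In shNRF2 against shNC in DMSO 2 of these 12 were higher and 4 lower, where 16.8% and 18.3% of all genes were. CDH17, a cadherin of gut epithelium, went from 31.3 ± 0.932 CPM in shNC DMSO to 8.24 ± 0.855 in shNRF2 DMSO (-1.93 ± 0.102, adjusted p = 3.6e-14, edgeR), so that it fell as CDH2 did while CDH1 rose.

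Of 18 genes of epithelial identity, 8 could be tested. The splicing regulators ESRP1 and ESRP2, GRHL2, OVOL1, OVOL2 and the host gene of the miR-200c cluster, MIR200CHG, were among the 10 below the count filter. EHF, an ETS factor of epithelia, was higher in shNRF2 DMSO (1053.7 ± 35.8 CPM) than in shNC DMSO (557.5 ± 48.0) and fell with GNA in both lines, to 614.7 ± 14.5 and 382.9 ± 9.04. AP1M2, an adaptor subunit for basolateral sorting in epithelia, was lower in shNRF2 DMSO (9.45 ± 1.54 CPM against 29.2 ± 2.95). In the list 0 rose and 2 fell with GNA in shNC (14.6% and 16.1% of all genes), 1 rose and 2 fell in shNRF2 (16.7% and 17.0%), and 2 rose and 1 fell in shNRF2 against shNC in DMSO (16.8% and 18.3%). So few genes do not set the list apart from all genes. KRT8, the most abundant of the keratins listed, fell with GNA by 0.71 on the log2 scale in shNC and by 0.7 in shNRF2. KRT18 changed by -0.65 in shNC and by -0.64 in shNRF2. KRT7 went the other way in shNC, by 0.2 ± 0.056 (adjusted p = 0.0082, edgeR), and was not called in shNRF2 (0.02 ± 0.056). Over the alternatives the called genes of their list ran from 2 to 3 in shNC. CDH1 and OCLN rose in shNC and OCLN in shNRF2.

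Of 14 tested mesenchymal genes 4 were higher and 4 lower in shNRF2 than in shNC in DMSO, against 16.8% and 18.3% of all genes. FN1 (fibronectin) went from 645.1 ± 60.0 to 1316.0 ± 126.4 CPM, COL5A1 (a collagen chain) from 58.0 ± 5.24 to 167.6 ± 10.5, and TNC (tenascin C) from 0.634 ± 0.594 to 6.43 ± 0.697. All 3 encode extracellular matrix proteins, and they were higher in the line where VIM and CDH2 were lower. With GNA 5 rose and 1 fell in each line, where 14.6% and 16.1% of all genes rose and fell in shNC and 16.7% and 17.0% in shNRF2. AXL, a receptor tyrosine kinase, rose from 53.9 ± 1.18 to 93.2 ± 1.13 CPM in shNC and from 63.6 ± 2.8 to 103.9 ± 5.67 in shNRF2, and S100A4 fell from 89.8 ± 10.8 to 50.5 ± 3.72 and from 62.2 ± 1.09 to 33.3 ± 2.31.

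Of 8 tested EMT transcription factor genes other than ZEB1 and SNAI2, 0 rose and 2 fell with GNA in shNC (14.6% and 16.1% of all genes), and 1 rose and 3 fell in shNRF2 (16.7% and 17.0%). ZEB2, the paralogue of ZEB1, rose in shNRF2 from 21.4 ± 1.09 to 31.6 ± 1.56 CPM, as ZEB1 did. TCF3 fell from 50.5 ± 5.01 to 38.3 ± 2.27 CPM in shNC and from 59.0 ± 3.0 to 42.2 ± 2.54 in shNRF2. The count in shNC was 1 in 17 of the 22 alternatives, among them 11 of the 12 fits with 1 library left out (all but shNRF2 GNA 1), and that in shNRF2 was 2 without shNRF2 GNA 3. In shNRF2 against shNC in DMSO 3 of these 8 were higher and 0 lower (16.8% and 18.3% of all genes). Under GNA 3 were higher and 1 lower (12.8% and 13.3%). Over the alternatives the genes called between the lines ran from 2 to 3 in DMSO and from 1 to 4 in GNA. The TGF-beta pathway, a main inducer of EMT, leaned downward with GNA: 0 of 19 genes rose and 9 fell in shNC (median -0.18), and 0 rose and 11 fell in shNRF2 (median -0.29), against 16.1% and 17.0% of all genes lower. TGFBR3 (betaglycan, a co-receptor) fell from 9.6 ± 1.16 to 4.87 ± 0.701 CPM and from 12.8 ± 0.321 to 6.23 ± 0.96, and SMAD6, an inhibitory SMAD, from 44.2 ± 3.03 to 31.1 ± 1.7 and from 49.4 ± 2.9 to 27.6 ± 2.84. Pathway members that transmit and that restrain the signal were both among those that fell. With library totals the counts were 2 higher and 4 lower in shNC (median -0.08) and 1 higher and 9 lower in shNRF2 (median -0.22), and in limma on FPKM 1 higher and 4 lower in shNC.

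**Figure D4:**
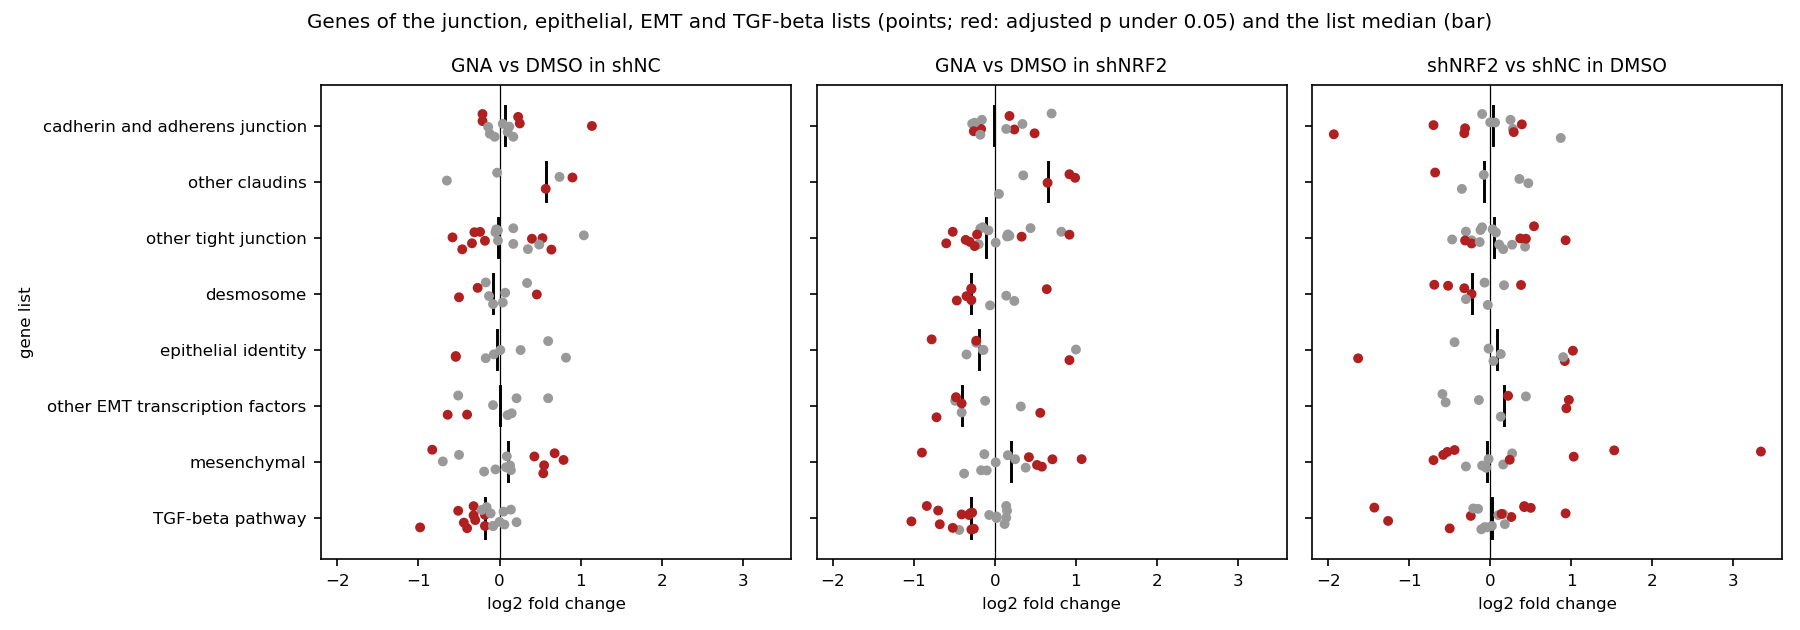
Log2 fold change of each tested gene (points) of 8 lists of related genes for GNA in shNC, GNA in shNRF2 and shNRF2 against shNC in DMSO (panels); red points passed an adjusted p under 0.05 in edgeR and the bar is the list's median. The TGF-beta medians with GNA are -0.18 and -0.29, and the other claudin medians are 0.57 and 0.65.

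The genes whose level over the 12 libraries was most like that of a member were taken by Pearson r of log2(CPM + 1) among 9997 tested genes with a mean of at least 5 CPM. For CDH1 they were SRGAP1 (r = 0.98), KIAA0319L (0.978) and SEL1L (0.977). For CDH2 they were CRTAP (0.976), PDZK1 (0.968) and CCNG1 (0.965), and PDZK1 went from 42.5 CPM in shNC DMSO to 11.4 in shNRF2 GNA. For VIM they were PALS2 (0.965), CERK (0.95) and SNCG (0.944), all lower in shNRF2. The libraries fall into 4 groups, so any gene with a like pattern of group means gives a high r. All genes of a library also share its scaling and depth. These values are a description over 12 libraries.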

How the data were processed

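Raw counts and FPKM of 61510 genes in 12 bulk RNA libraries were used as the authors deposited them. Per the submitters' processing notes the build was GRCh38 and DESeq2 was among the tools; for the aligner, counter, strand setting and annotation, the sources used here name none. The deposited FPKM equalled count over column total over a fixed length per gene for 100% of 11620 genes checked (relative tolerance 0.001), so they hold the same information as the counts.

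Counts were filtered with filterByExpr (minimum count 10, total 15), leaving 15653 genes with 99.8% of the counts. Scaling was by TMM, and testing by edgeR 4.0.16 in R 4.3.3 (glmQLFit, glmQLFTest, 1 coefficient per group). CPM use TMM-scaled totals, and 95% intervals use the test's total degrees of freedom. The alternatives were other scalings, filters and group subsets, DESeq2 1.42.0, limma 3.58.1 on log2(FPKM + 1) and log2(FPKM + 0.1), a replicate block, and each library left out. The fit was tested on simulated data.

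The 10 genes and all lists were chosen with earlier results of these data known. Named list genes were, per list and comparison, at most 3 called genes of largest change that reached 5 CPM in 1 of the groups and whose libraries did not overlap (a condition left out for the difference of responses); the text names a part of them, chosen after their values were seen, and a gene so named is also given in other comparisons. Untested list genes are named by their place in the list. Replicate numbers were not treated as pairs, since residual correlations of same-numbered libraries exceeded 0.1 in 0 of 18 cases. Single-cell data named in the series' design were not analysed here.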

Additional observations from a re-analysis of the deposited data

Results flagged for a closer look

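The GNA responses of CDH1 and ZEB1 differed between the lines by the interaction test in edgeR. For CDH1 the response in shNRF2 minus that in shNC was -0.39 on the log2 scale, with a response of 0.46 in shNC and 0.07 in shNRF2. For ZEB1 it was 0.27, with 0.09 in shNC and 0.36 in shNRF2. With each library left out in turn, the CDH1 call was lost in 8 of 12 fits and the ZEB1 call in 7 of 12, and the ZEB1 call was also lost with library totals (adjusted p = 0.073), without a filter (0.054) and with the replicate number as a block (0.052).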

How the results depend on the processing

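Over the alternatives, 964 of the members' log2 fold changes kept their direction and side of the threshold, 31 became called, 67 lost the call and 21 changed sign. Members called for GNA in shNC were 5, not 3, with upper-quartile factors, with library totals and on log2(FPKM + 1) or log2(FPKM + 0.1), and 2 to 5 with a library left out. For GNA in shNRF2 they were 3 to 5 with a library left out. For the difference of responses they were 1, not 2, with library totals, without a filter and with the replicate number as a block, 0 in limma with either pseudocount, and 0 to 2 with a library left out. The block left the counts for GNA in shNC and for both comparisons of the lines at 3, 5 and 7, and gave 4, not 5, for GNA in shNRF2. The pairing is a number alone, and 2 of 12 libraries correlated best with one of their own number. The change of CDH2 with GNA in shNC turned to 0.04 with library totals and to 0.02 and 0.03 in limma. With a library left out it ran from -0.26 to 0.05, and for GNA in shNRF2 CDH1 ran from -9.02e-05 to 0.15 and VIM from -0.01 to 0.07. The differences of responses ran from -0.1 to 0.07 for OCLN, -0.06 to 0.02 for TJP1, -0.00053 to 0.16 for CLDN1, -0.2 to 0.1 for CLDN2 and -0.06 to 0.03 for VIM. The cause was not tested. Called genes for the difference of responses were 52.5% higher, and 38.1% with library totals; for GNA in shNRF2 the shares were 49.6% and 61.6%, and for shNRF2 against shNC in DMSO 47.9% and 58.7%. Depth limits SNAI2, CDH2 and EPCAM, whose intervals are the widest.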
